A study of Homo sapiens with 6 samples.

Results

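The genes described are 10 components of the machinery that drives cells through G1 and into S phase. They are the D-type cyclins CCND1, CCND2 and CCND3, the E-type cyclins CCNE1 and CCNE2, the kinases CDK2, CDK4 and CDK6, and the inhibitors CDKN1B and CDKN2B. They were taken by gene symbol from 24551 genes, and the choice was made with earlier results of these data known. RNA-Seq of polyadenylated RNA was carried out on 6 libraries from 2 human cell lines. DU145 is a prostate carcinoma line derived from a brain metastasis, and 769-P is a renal cell adenocarcinoma line of the clear cell type. In each line 1 library came from cells given the control siRNA (NC), 1 from cells given SPOP siRNA 1 and 1 from cells given SPOP siRNA 2. The 2 siRNA libraries of a line were taken as its replicates and the control has none. Nothing in the labels says that the libraries came from separate cultures, so the spread between them may be partly technical. Each type of cancer is represented by a single cell line, and the time between transfection and RNA extraction was not given for these libraries.

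Cyclins are the regulatory subunits of cyclin-dependent kinases. In G1, the D-type cyclins bind CDK4 or CDK6 and start the phosphorylation of the retinoblastoma protein RB1, which releases E2F transcription factors from repression. E2F factors then activate genes that include those of the E-type cyclins, which bind CDK2 and promote entry into S phase. CDKN2B, also called p15, binds CDK4 and CDK6 and keeps D-type cyclins from them, whereas CDKN1B, also called p27, mainly inhibits cyclin E bound to CDK2. SPOP is the substrate-binding subunit of a CUL3 ubiquitin ligase, and the study asked whether it controls the stability of CYCLIN E1, the protein made from CCNE1. The values here are of mRNA and give no measure of that protein. In whole-culture RNA, fewer cells in a phase of the cycle and less RNA per cell cannot be told apart.

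Knockdown was checked first. SPOP had 16.1 FPKM (fragments per kilobase of transcript, adjusted for library size) in the DU145 control and 2.77 and 2.96 with siRNA 1 and siRNA 2. The 769-P control was at 11.6 FPKM, against 1.53 under siRNA 1 and 1.39 under siRNA 2. FPKM hold no read counts, so the depth is unknown, and the depth relative to the 769-P control, estimated from low values, ranged from 0.681 in DU145 with siRNA 2 to 1.41 in 769-P with siRNA 2. A low background stood out in 2 libraries. Of 366 olfactory receptor genes, 287 were above 0 in the DU145 control and 237 in 769-P with siRNA 2, with means of 0.345 and 0.227 FPKM, against 3 to 5 genes in the other 4 libraries. Of 8 prostate epithelium markers, 7 were below 1 FPKM in all DU145 libraries, with TMPRSS2 listed at 0 and KLK3 at 0.312 FPKM or less, whereas all 6 general epithelial markers exceeded 1 FPKM. Of 8 renal markers, 6 reached 1 FPKM in all 769-P libraries, with PAX8 at 106 to 125 FPKM, and CA9 and NDUFA4L2 were listed at 0. No marker of blood or endothelium reached 1 FPKM in all libraries of either line. The blood marker CD14 was at 1.47 FPKM in the DU145 control and 1.59 in DU145 with siRNA 2. Of 3 fibroblast markers found, COL1A1 was at 2.89 to 3.77 FPKM in DU145 and 1.71 to 9.68 in 769-P. The other fibroblast markers, DCN and PDGFRB, were below 1 FPKM in all libraries.

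CCND1 was the most abundant of the 10 genes in every library and was lower with both SPOP siRNAs in both lines. It encodes CYCLIN D1, the main D-type cyclin of many epithelial cells, and lies on chromosome 11 of GRCh37 from 69455924 to 69469242 on the plus strand. The DU145 control stood at 193 FPKM, siRNA 1 at 106 and siRNA 2 at 104. The 769-P control was at 379 FPKM, against 180.1 under siRNA 1 and 125 under siRNA 2. Both siRNA libraries were therefore below the control of their line, at 54.6% and 53.8% of it in DU145 and at 47.6% and 33.1% in 769-P. Changes were measured as differences of log2(FPKM + 1), which understates those of genes with low values. A call required a change of at least 1.5-fold, of the same sign, in both siRNA libraries of a line. CCND1 was called lower in both lines, with log2 fold changes of -0.87 and -0.89 in DU145 and of -1.07 and -1.59 in 769-P. At 2-fold it was called in 769-P only. Of the 11865 genes averaging 1 FPKM or more, 5.91% were called in DU145 and 7.32% in 769-P at 1.5-fold, 0.995% and 1.22% at 2-fold, and 1.14% at 1.5-fold with a shared direction in the 2 lines. CCND1 was the only member among these last.

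A model across all genes gave CCND1 a mean log2 fold change of -0.88 in DU145 (standard error 0.27, adjusted p = 0.774, limma) and of -1.33 in 769-P (standard error 0.27, adjusted p = 0.633, limma). Neither passed an adjusted p of 0.05. The mean over both lines, a contrast added after the values were seen, was -1.10 (standard error 0.19, adjusted p = 0.294, limma), and it was lower in 4 of 4 siRNA libraries. By this mean CCND1 stood at rank 58 from the lowest of 11865 genes. Among the 487 genes with at least 100 FPKM in both controls it stood at rank 4 from the lowest. That set was picked by the control values, which also enter the fold changes, and was ranked for CCND1 alone. This rank is therefore a description only. The difference between the lines in the response of CCND1 was 0.45 (DU145 minus 769-P, standard error 0.38, adjusted p = 0.999, limma), so a larger response in 769-P was not shown.

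CCND3, which encodes CYCLIN D3, was lower mainly with siRNA 1. Its DU145 values were 32.2 FPKM under control siRNA, 11.2 under siRNA 1 and 24.7 under siRNA 2. The 769-P control was at 37.7 FPKM, against 24.5 under siRNA 1 and 36.7 under siRNA 2. Its log2 fold changes were -1.44 and -0.37 in DU145 and -0.60 and -0.04 in 769-P, and it was not called in either line. CCND3 lies on chromosome 6 of GRCh37 from 41902672 to 42018095 on the minus strand. CCND2, on chromosome 12 from 4378937 to 4414519 on the plus strand, was near 0 in both lines. It was between 0.0488 and 0.0575 FPKM in DU145, was listed at 0 in 2 of the 769-P libraries and had 0.0238 FPKM with siRNA 2. In the 2 libraries with a background these values were below the mean of the olfactory receptor genes, and CCND2 was not tested.

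**Figure D1:**
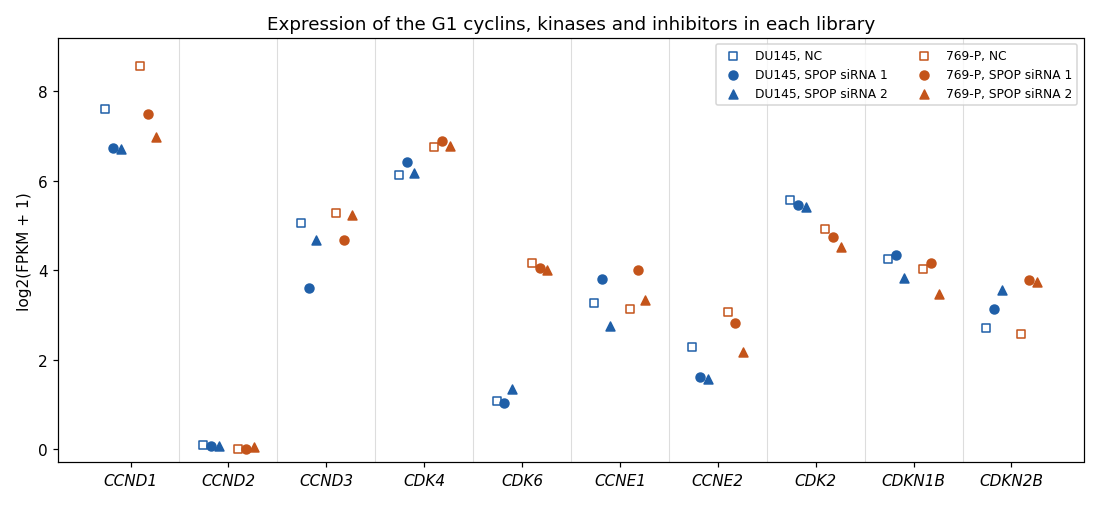
Level of the 10 genes as log2(FPKM + 1), with a column for each gene and a point for each of the 6 libraries (open squares for the controls, circles for siRNA 1 and triangles for siRNA 2, in blue for DU145 and orange for 769-P). CCND1 lies below the control of its line in all 4 siRNA libraries, and CDK6 differs most between the lines.

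The kinases that partner the D-type cyclins had values close to their controls. CDK4, on chromosome 12 of GRCh37 from 58141510 to 58149796 on the minus strand, had 68.7 FPKM in the DU145 control, 84.3 with siRNA 1 and 71.6 with siRNA 2. Its 769-P values were 108 FPKM under control siRNA, 118 under siRNA 1 and 108 under siRNA 2. CDK4 was thus at or slightly above its control in all 4 siRNA libraries, with log2 fold changes of 0.01 to 0.29. CDK6, on chromosome 7 from 92234235 to 92465887 on the minus strand, had 1.10 FPKM in the DU145 control and 1.03 and 1.52 with the siRNAs. Its 769-P values were 16.9 FPKM under control siRNA, 15.5 under siRNA 1 and 15.0 under siRNA 2. Neither kinase was called in either line. The DU145 control level of CDK6 compares with a mean of 0.345 FPKM for the olfactory receptor genes of that library, and with the background subtracted the DU145 changes of CDK6 were 0.20 and 0.51.

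CCNE1, the transcript of CYCLIN E1, moved in different directions with the siRNAs in DU145. It lies on chromosome 19 of GRCh37 from 30302898 to 30315219 on the plus strand. The DU145 control stood at 8.63 FPKM, siRNA 1 at 13.1 and siRNA 2 at 5.77. For 769-P the control stood at 7.76 FPKM, siRNA 1 at 15.0 and siRNA 2 at 9.11. The siRNA libraries thus lay on both sides of the control in DU145 and above it in 769-P. The log2 fold changes were 0.55 and -0.51 in DU145 and 0.87 and 0.21 in 769-P, and CCNE1 was not called in either line. Its mean log2 fold change was 0.02 in DU145 (standard error 0.52, adjusted p = 0.998, limma) and 0.54 in 769-P (standard error 0.52, adjusted p = 0.822, limma). The study also measured CCNE1 mRNA by quantitative RT-PCR and reported no effect of SPOP knockdown on it in these lines.

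CCNE2, which encodes the related CYCLIN E2, was lower in all 4 siRNA libraries and lies on chromosome 8 of GRCh37 from 95891998 to 95908906 on the minus strand. The DU145 control stood at 3.90 FPKM, siRNA 1 at 2.04 and siRNA 2 at 1.96. The 769-P control was at 7.41 FPKM, against 6.01 under siRNA 1 and 3.53 under siRNA 2. It was called lower in DU145, with log2 fold changes of -0.69 and -0.73, and not in 769-P, with -0.26 and -0.89. The DU145 control is a library with a background, and once the mean of the olfactory receptor genes was subtracted the changes were -0.58 and -0.63 and the change with siRNA 1 was just short of 1.5-fold. The mean over both lines was -0.64 (standard error 0.24, adjusted p = 0.432, limma).

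CDK2, the kinase of the E-type cyclins, was a little lower in all 4 siRNA libraries and was not called. It lies on chromosome 12 of GRCh37 from 56360565 to 56366573 on the plus strand. Its DU145 values were 46.2 FPKM under control siRNA, 42.7 under siRNA 1 and 41.8 under siRNA 2. For 769-P the control stood at 29.3 FPKM, siRNA 1 at 25.9 and siRNA 2 at 21.9. The mean log2 fold changes were -0.13 in DU145 (standard error 0.22, adjusted p = 0.940, limma) and -0.29 in 769-P (standard error 0.22, adjusted p = 0.768, limma).

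CDKN2B was higher in all 4 siRNA libraries. It lies on chromosome 9 of GRCh37 from 22002902 to 22009304 on the minus strand. Its DU145 values were 5.56 FPKM under control siRNA, 7.78 under siRNA 1 and 10.7 under siRNA 2. Its 769-P values were 4.95 FPKM under control siRNA, 12.8 under siRNA 1 and 12.3 under siRNA 2. The 769-P siRNA libraries lay close together and far above their control, at 2.59-fold and 2.49-fold of it in FPKM, whereas those of DU145 were at 1.40-fold and 1.93-fold. CDKN2B was called higher in 769-P at both 1.5-fold and 2-fold, with log2 fold changes of 1.22 and 1.16, and was not called in DU145, with 0.42 and 0.84. Its mean log2 fold change was 1.19 in 769-P (standard error 0.28, adjusted p = 0.669, limma) and 0.63 in DU145 (standard error 0.28, adjusted p = 0.801, limma). Over both lines it was 0.91 (standard error 0.20, adjusted p = 0.329, limma). The difference between the lines was -0.56 (DU145 minus 769-P, standard error 0.39, adjusted p = 0.999, limma). The antisense RNA CDKN2B-AS1, on the plus strand from 21994138 to 22128102, spans CDKN2B. It was at 0.407 FPKM in 769-P with control siRNA and at 0.460 and 0.346 with the siRNAs, and 0.222 FPKM in the DU145 control and 1.33 and 0.863 with the siRNAs. The DU145 control value was below the mean of the olfactory receptor genes of that library, 0.345 FPKM. That mean was 0.227 FPKM in 769-P with siRNA 2. Whether the counting used strand was not given, so reads of the overlapping genes cannot be told apart.

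CDKN1B, on chromosome 12 of GRCh37 from 12838432 to 12875303 on the plus strand, was near its control with siRNA 1 and below it with siRNA 2 in both lines. Its DU145 values were 18.2 FPKM under control siRNA, 19.2 under siRNA 1 and 13.1 under siRNA 2. For 769-P the control stood at 15.2 FPKM, siRNA 1 at 16.9 and siRNA 2 at 10.0. The log2 fold changes were 0.07 and -0.44 in DU145 and 0.15 and -0.55 in 769-P, and it was not called.

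**Figure D2:**
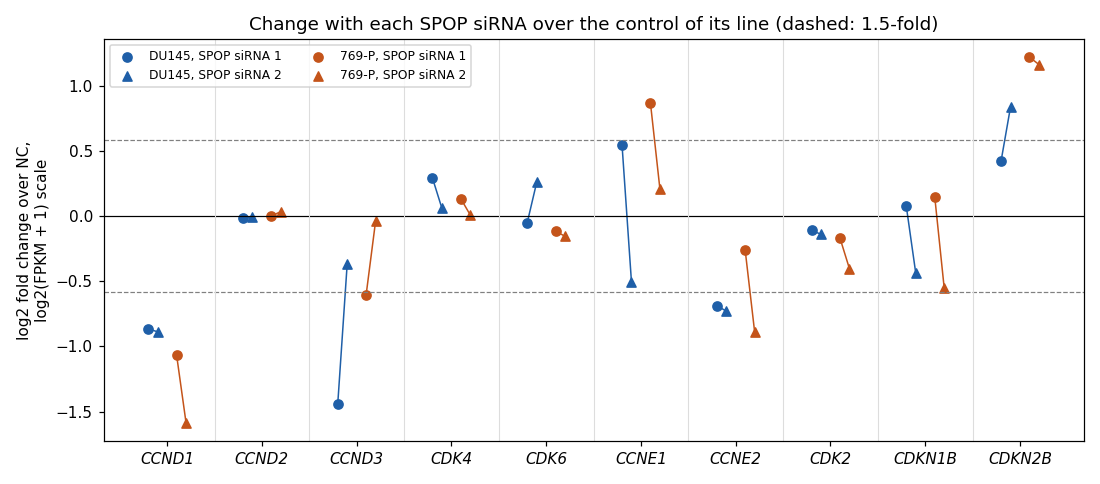
Change of each gene over the control of its line, as the log2 difference of FPKM + 1, with circles for siRNA 1 and triangles for siRNA 2 in DU145 (blue) and 769-P (orange) and dashed lines at 1.5-fold. CCND1 lies below the lower line in all 4 libraries, and CDKN2B lies above the upper line with both siRNAs in 769-P.

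The promoters of CCNE1, the cyclin the study was about, and of CDKN2B, the inhibitor called higher in 769-P, are shown. RefSeq windows of 300 bases around the start of transcription (GRCh38.p14) were searched for 6 of the 10 genes, in 9 windows. CCND1, CCND2, CCNE2 and CDK2 were not in the set searched. The motif counts of the 9 windows therefore say nothing about these genes, and whether CCNE2 has an E2F motif was not tested. Capitals mark the GC box GGGCGG or its reverse complement CCGCCC, a sequence bound by SP1 factors. Each sequence is written 5′ to 3′ on the strand of its gene, which is plus for CCNE1 (chr19:29811741-29812040) and minus for CDKN2B (chr9:22009256-22009555).
CCNE1: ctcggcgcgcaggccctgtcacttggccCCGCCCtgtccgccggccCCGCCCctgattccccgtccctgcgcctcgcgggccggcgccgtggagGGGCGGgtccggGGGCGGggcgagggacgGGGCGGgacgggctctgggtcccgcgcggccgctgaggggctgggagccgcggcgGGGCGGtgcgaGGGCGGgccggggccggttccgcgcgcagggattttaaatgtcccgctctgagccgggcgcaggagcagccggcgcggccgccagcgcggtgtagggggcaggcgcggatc
CDKN2B: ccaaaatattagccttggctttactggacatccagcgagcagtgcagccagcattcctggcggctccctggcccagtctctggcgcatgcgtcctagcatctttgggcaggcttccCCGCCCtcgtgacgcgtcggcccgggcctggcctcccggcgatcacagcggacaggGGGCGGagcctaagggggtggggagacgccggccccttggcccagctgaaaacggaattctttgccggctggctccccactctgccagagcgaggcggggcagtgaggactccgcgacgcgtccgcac
The CCNE1 window held 7 GC boxes and 81.0% G or C, and the CDKN2B window held 2 GC boxes and 67.3% G or C. A GC box on either strand was found in 7 of the 9 windows and in 45.0% of all 35116 promoter windows. The E2F motifs searched were TTTCCCGC, TTTCGCGC, TTTGCCGC and TTTGGCGC on both strands. They were in 0 of the 9 windows and in 3.31% of all promoter windows. These matches are a description of the letters in the windows only.

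The calls of the members were counted in each line. Of the 10 genes 9 passed the filter on mean FPKM, and CCND2 did not. In DU145 2 of 9 were called at 1.5-fold, CCND1 and CCNE2, both lower, where 5.91% of all genes were called. In 769-P 2 of 9 were called, CCND1 lower and CDKN2B higher, where 7.32% of all genes were called. For the DU145 knockdown 0 of 9 had an adjusted p under 0.05 in limma, where 0.135% of all genes did, and 1 had an unadjusted p under 0.05, as had 6.27% of all genes. In 769-P 0 of 9 passed in limma, where 0.101% of all genes did, and 2 had an unadjusted p under 0.05, as had 6.97% of all genes. Over both lines 0 of 9 passed (0.236% of all genes), and CCND1, CCNE2 and CDKN2B had an unadjusted p under 0.05, as had 11.1% of all genes. For the difference between the lines 0 of 9 passed (0.169% of all genes) and 0 had an unadjusted p under 0.05, against 2.74% of all genes. With 2 residual degrees of freedom a miss of the threshold does not show that a gene did not differ, and SPOP itself had an adjusted p of 0.134 in DU145 and 0.0948 in 769-P by limma.

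CCND3, CCNE1 and CDKN1B had unlike values with the 2 siRNAs. In a contrast of siRNA 2 minus siRNA 1 over both lines, added after the values were seen, CCND3 was higher with siRNA 2 by 0.82 on the log2 scale (standard error 0.21, adjusted p = 0.137, limma). CCNE1 was lower with siRNA 2, at -0.86 (standard error 0.22, adjusted p = 0.131, limma). CDKN1B was lower with siRNA 2, at -0.61 (standard error 0.17, adjusted p = 0.170, limma). The direction was the same in both lines for each of these. None of the 9 genes tested passed, where 0.759% of all genes did, and these 3 had an unadjusted p under 0.05, as had 13.8% of all genes. E2F1, an activator of CCNE1, was named after its values were seen and, like CCNE1, was lower with siRNA 2 than with siRNA 1 in both lines. The DU145 control stood at 39.3 FPKM, siRNA 1 at 45.1 and siRNA 2 at 20.6. Its 769-P values were 29.6 FPKM under control siRNA, 35.5 under siRNA 1 and 17.7 under siRNA 2. The contrast for E2F1 was -1.03 (standard error 0.16, adjusted p = 0.0364, limma). Without the filter on mean FPKM, 0 of all genes passed this contrast, E2F1 included. The other E2F factors went both ways, from -0.44 for E2F3 to 0.41 for E2F5. A link between E2F1 and CCNE1 was not tested. The contrast for SPOP itself was -0.0037 (standard error 0.21, adjusted p = 0.997, limma).

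The lines differed most in CDK6. Its mean over the 3 libraries was 15.8 ± 0.956 FPKM in 769-P and 1.22 ± 0.262 FPKM in DU145 (SD, n = 3), a ratio of 13.0, and the libraries did not overlap. The level contrast, DU145 minus 769-P, was -2.97 for CDK6 (standard error 0.19, adjusted p = 0.000404, limma). CDK4 was also higher in 769-P, at 111 ± 5.88 against 74.9 ± 8.28 FPKM (adjusted p = 0.0286, limma), as was CCND1, at 228 ± 133 against 134 ± 51.1 FPKM (adjusted p = 0.0285, limma), and CCNE2, at 5.65 ± 1.96 against 2.63 ± 1.10 FPKM (adjusted p = 0.0370, limma). CDK2 was higher in DU145, at 43.6 ± 2.31 against 25.7 ± 3.70 FPKM (adjusted p = 0.0160, limma). These 5 of 9 genes passed, where 42.1% of all genes did. Each SD spans the control and both siRNA libraries of a line, and so includes any change with knockdown. The limma contrast gave the control and knockdown groups equal weight on the log2 scale. The libraries of the lines did not overlap for CDK2, CDK4 and CDK6, 3 of the 9 genes tested, against 56.3% of all genes. CDK6 passed under each alternative tried, whereas leaving out single siRNA libraries left 1 to 3 of the 5 genes. Differences between the lines and between the cancers they came from cannot be told apart.

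Because FPKM is per length of transcript, levels can be ordered within a line. In DU145 the order of the means was CCND1, CDK4, CDK2, CCND3, CDKN1B, CCNE1, CDKN2B, CCNE2, CDK6 and CCND2. CCND3 and CDKN1B overlapped in their libraries there, as did CCNE1 and CDKN2B, and the other neighbours did not. In 769-P the order was CCND1, CDK4, CCND3, CDK2, CDK6, CDKN1B, CCNE1, CDKN2B, CCNE2 and CCND2. There CCND3 overlapped CDK2, and each neighbouring pair from CDK6 to CCNE2 overlapped.

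The make-up of each family was described by its shares of FPKM. CCND1 made up 85.7% of the D-type cyclin FPKM in the DU145 control, 90.4% under siRNA 1 and 80.7% under siRNA 2. Its 769-P share was 90.9% in the control and 88.0% and 77.3% with the siRNAs. The summed D-type cyclins were at 51.8% and 57.1% of control in DU145 and at 49.1% and 38.9% in 769-P, and CCND1 supplied most of each sum. CDK4 made up 97.9% to 98.8% of CDK4 plus CDK6 in DU145 and 86.5% to 88.4% in 769-P. D-type cyclin FPKM per unit of CDK4 plus CDK6 FPKM was 3.23 in the DU145 control, 1.37 under siRNA 1 and 1.76 under siRNA 2. The 769-P ratio was 3.34 in the control and 1.53 and 1.31 with the siRNAs. This ratio was thus lower in all 4 siRNA libraries than in either control. CCNE1 made up 68.9% of the E-type cyclin FPKM in the DU145 control and 86.5% and 74.7% with the siRNAs. In 769-P it made up 51.1% in the control and 71.4% and 72.1% with the siRNAs, so its share was higher in all 4. The E-type sum was 121% and 61.7% of control in DU145 and 138% and 83.4% in 769-P, above it with siRNA 1 and below it with siRNA 2 in both lines.

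**Figure D3:**
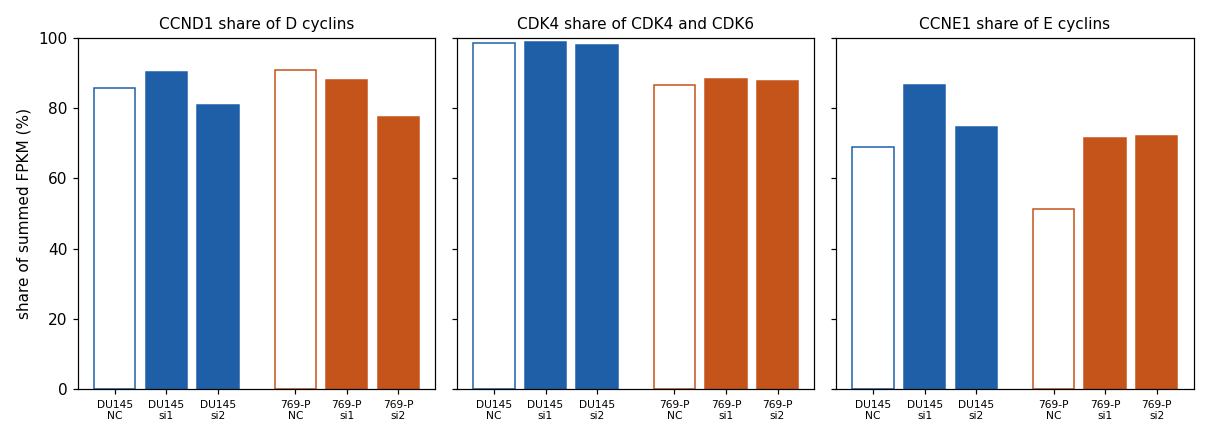
Percent of the family FPKM in each of the 6 libraries, for CCND1 among D-type cyclins, CDK4 among CDK4 and CDK6, and CCNE1 among E-type cyclins. The CCNE1 share is higher in all 4 siRNA libraries than in the control of their line.

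Other genes of the G1/S pathway were counted from 7 lists. The medians over all tested genes were 0.09 in DU145 and -0.03 in 769-P, and 4.72% of all genes were called higher and 1.19% lower in DU145 against 3.60% higher and 3.73% lower in 769-P. The DU145 median was 0.0740 with siRNA 1 and 0.12 with siRNA 2. After median-centring of the fold changes, 58.5% of the DU145 calls were higher, against 79.9% without it. With the background subtracted instead, 90.1% of them were higher. The 9 members tested had medians of -0.13 in DU145 and -0.20 in 769-P. Among the 5 other CDK inhibitors, CDKN1C, which encodes p57, was called higher in DU145, from 2.34 FPKM in the control to 6.43 and 7.75. The rest of these inhibitors were not called in DU145, and none of the 5 was called in 769-P. CDKN2A, which lies next to CDKN2B and encodes p16, had 375, 517 and 418 FPKM in the control, siRNA 1 and siRNA 2 libraries of DU145 and 2.36, 0 and 1.62 FPKM in those of 769-P. Mean changes of this list ran from -0.47 for CDKN1A to 1.27 for CDKN1C in DU145, with a median of 0.14, and from -1.05 for CDKN2A to 0.42 for CDKN2D in 769-P, with a median of -0.26. Of 13 pocket proteins and E2F factors, 0 were called in DU145 and 1 in 769-P. That was E2F8, which was called lower, from 5.62 FPKM to 2.69 and 2.15. These 13 genes ran from -0.41 for E2F5 to 0.33 for RB1 in DU145 and from -0.96 for E2F8 to 0.12 for RBL2 in 769-P, with a median of -0.23 in 769-P.

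The cyclins that act later in the cycle had lower values than their controls in all siRNA libraries. CCNA2, CCNB1, CCNB2 and CDK1, the kinase of the mitotic cyclins, were below the control in 4 of 4 siRNA libraries. In 769-P 2 of the 4 were called lower, CCNA2 from 45.3 FPKM to 24.9 and 27.5 and CDK1 from 43.7 FPKM to 24.6 and 23.5. The list medians were -0.35 in DU145 and -0.61 in 769-P. In DU145 the median was -0.62 with siRNA 1 and only -0.09 with siRNA 2. With siRNA 2 there the 4 genes were at 81.5% (CDK1) to 98.0% (CCNB2) of control. In 769-P the medians were -0.66 and -0.54. The share of all genes below the control in all 4 siRNA libraries was not counted. Of 12 E2F target genes, among them the MCM helicase subunits, 0 were called in either line, but 12 of 12 were below the control with both siRNAs in 769-P and 7 of 12 in DU145. Their medians were -0.43 in 769-P and -0.19 in DU145, and their means ran from -0.67 for CDC6 to -0.13 for MCM7 in 769-P and from -0.52 for RRM2 to 0.10 for MCM2 in DU145. Over all tested genes 4688 were below the control with both siRNAs in 769-P and 2631 in DU145.

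Of 8 enzymes that activate or inhibit CDKs, 1 was called lower in DU145, the phosphatase CDC25C, from 6.59 FPKM to 2.76 and 3.84, and 0 in 769-P. Their medians were -0.30 in DU145 and -0.40 in 769-P, where CDC25B was lowest at -0.70. Of 12 ubiquitin ligase subunits that act on cyclins or p27, SPOP was called lower in both lines. In 769-P SKP2, the subunit that targets p27, was called lower from 20.9 FPKM to 12.2 and 11.7. FBXO4 was called lower there from 6.79 FPKM to 3.69 and 4.13. The medians of this list were -0.09 in DU145 and -0.29 in 769-P, and the highest means were 0.34 for AMBRA1 in DU145 and 0.34 for FBXO31 in 769-P. TGF-beta signalling is known to induce CDKN2B, and 9 genes of that pathway were tested. TGFB2 passed the filter only through its DU145 values. In 769-P it was at 0.0796 FPKM or less, and its change there still enters the median. The highest means were 0.57 for the receptor TGFBR2 in DU145 and 0.41 for the ligand TGFB1 in 769-P, the lowest in 769-P was -0.37 for SMAD3, and the medians were 0.11 in DU145 and -0.23 in 769-P.

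**Figure D4:**
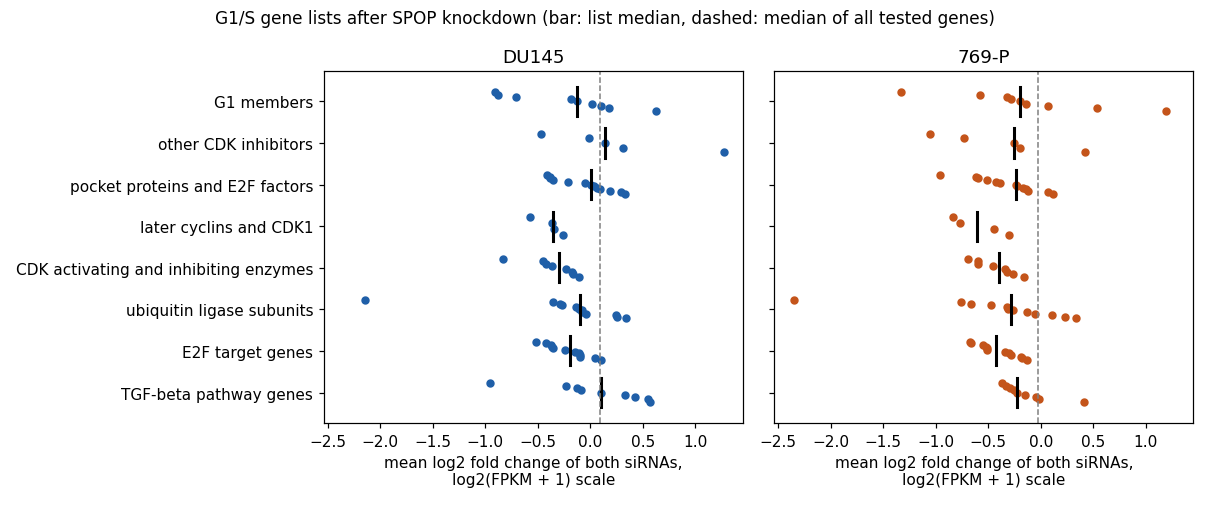
Mean log2 fold change over both siRNAs, on log2(FPKM + 1), of each tested gene in the members and the 7 other G1/S lists, for DU145 and 769-P, with a bar at the median of each list and a dashed line at the median of all tested genes. The 4 genes of the list of later cyclins and CDK1 lie below 0 in both lines, and all 12 E2F target genes lie below 0 in 769-P.

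The genes whose levels followed CCND1, CCNE1 and CDKN2B most closely over the 6 libraries were found by the root mean square difference of log2(FPKM + 1) after each gene was centred on its own mean. For CCND1 the nearest were CLDND1 (0.216), RPE (0.217) and SPC25 (0.234). For CCNE1 they were MYADM (0.0823), RFXAP (0.110) and HDAC7 (0.112). For CDKN2B they were MPST (0.0780), ORAI3 (0.0830) and RPL26L1 (0.131). MPST was at 37.7 FPKM in 769-P with control siRNA and at 87.3 and 88.0 with the SPOP siRNAs, and 47.8 FPKM in the DU145 control and 61.2 and 75.4 with the siRNAs. The likeness is a description over 6 libraries, with no test.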

How the data were processed

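RNA-Seq of polyadenylated RNA was carried out in 6 libraries. The authors trimmed reads with cutadapt, checked them with FastQC, aligned them against hg19 by TopHat2, and deposited the FPKM that Cufflinks computed. Versions and the annotation were not given in the sources used here. The paper's methods and the labels differ on library kit and on biological replicates, and the labels, with a single library per siRNA and control, were followed. FPKM hold no counts, so no count test was used. Rows with the same symbol were summed (440 symbols, no member among them). Tests were made with limma 3.58.1 in R 4.3.3 on log2(FPKM + 1) for 11865 genes averaging 1 FPKM or more, in 4 groups with a trend and Benjamini-Hochberg adjustment, and the code was tested on simulated data. Python 3.11.15 and pandas 2.3.3 were used for tables. Positions are from the GRCh37 annotation. The members and gene lists were chosen with earlier results of these data known. The genes named are all members, every gene of the 7 lists called in either line or with the highest or lowest mean change in its list, and the 3 nearest genes by level. Results for some of these genes are not reported here. E2F1 and CCNB1 were named after their values were seen. The alternatives were another pseudocount, other filters, 2-fold, median-centring, quantile normalization, no trend, background subtraction, a replicate block and leaving out each siRNA library.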

Additional observations from a re-analysis of the deposited data

How the results depend on the processing

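Each control is a single library and could not be left out, and FPKM without counts give no counting error. In DU145 the 2 calls of members became 0 at 2-fold and 1 with the background subtracted. With siRNA 1 alone the calls of members numbered 3 in DU145 and 4 in 769-P, where 19.5% and 20.1% of all genes were called. With siRNA 2 alone they numbered 3 in each line, where 15.1% and 14.5% of all genes were called. With both siRNAs there were 2 in each line, where 5.91% and 7.32% of all genes were called. For the level between lines, the 5 members became 2 without the filter on mean FPKM and 1 to 3 when 1 siRNA library was left out. For siRNA 2 minus siRNA 1 the range was 0 to 1, with CCND3 passing (adjusted p = 0.0244, limma) without siRNA 1 of 769-P. The siRNA numbers are shared by the lines, and the differences between siRNAs correlated between lines over genes (r = 0.27, 11865 genes). A replicate block on this pairing left 5 members for the level and 0 for each knockdown contrast. CDK6 over both lines was -0.016 and became 0.0124 with a pseudocount of 0.1, 0.0126 with quantile normalization and 0.11 with the background subtracted. With quantile normalization CCNE1 in DU145 became -0.10, and the difference between lines became -0.0199 for CDK2 and -0.17 for CDKN1B. With the background subtracted that difference became 0.00848 for CCNE2. Without 1 siRNA library, values that changed sign ranged from -0.51 to 0.55 for CCNE1, -0.0506 to 0.26 for CDK6 and -0.44 to 0.0748 for CDKN1B in DU145, and from -0.55 to 0.15 for CDKN1B in 769-P. The difference between lines ranged from -1.04 to 0.0107 for CCNE1, -0.44 to 0.18 for CCNE2, -0.0106 to 0.22 for CDK4 and -0.33 to 0.37 for CDKN1B. The level of CCNE1 ranged from -0.39 to 0.14, and CDK6 over both lines from -0.0932 to 0.0616. For siRNA 2 minus siRNA 1 the ranges were -0.57 to 0.0286 for CCND1, -0.0580 to 0.33 for CDK6 and -0.14 to 0.50 for CDKN2B. The causes were not tested. Over all genes, a pseudocount of 0.1 gave 1132 calls in DU145 against 701 and 1489 in 769-P against 869. Without the filter limma gave 1186 genes in DU145 against 16, 148 in 769-P against 12 and 1202 for the difference between lines against 20.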
